A study of Mus musculus with 24 samples.

Results

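The genes described here are 10 members of the integrated stress response and of the serine synthesis pathway that it controls: Atf4, Atf5, Ddit3, Trib3, Sesn2, Asns, Chac1, Phgdh, Psat1 and Mthfd2. They were chosen by name, as the rows of these genes in the deposited count tables, and make up 10 of 50686 genes listed. All 10 passed the filter on low counts, which kept 21657 genes. They were followed in tissue labelled Back left brain from C57BL/6 mice in which both Pank1 and Pank2, genes of pantothenate kinases that catalyse the entry step of coenzyme A synthesis, were targeted. The dKO group carried the genotype Pank1-/-Syn-Pank2-/- and was set against WT mice of the same background, in both sexes at day 10 and day 20, with 3 libraries for each combination. Syn is not spelled out in the labels, and neither the cells in which Pank2 was lost nor the part of each gene that was removed is given there. Whether libraries of a group stem from different animals is not stated, so the p-values speak only to variation among the libraries themselves, which may be technical.

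In the integrated stress response, kinases that sense amino acid shortage, misfolded protein, haem loss or viral RNA phosphorylate the translation factor eIF2. This slows most protein synthesis while mRNAs with suitable upstream reading frames, Atf4 among them, are translated more. ATF4 then drives genes of amino acid supply, glutathione breakdown and apoptosis control, and in brain the pathway is known from mitochondrial disease and from disorders of myelin-forming cells. mRNA levels do not show the translation of Atf4, which is the main step at which it is controlled.

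All 10 members are protein-coding genes; positions are GRCm38 from GENCODE M21. Among the regulators, Atf4 (ENSMUSG00000042406, chromosome 15, 80255184 to 80257541, + strand) encodes the central bZIP transcription factor. Atf5 (ENSMUSG00000038539, chromosome 7, 44812256 to 44816658, - strand) encodes a related factor that is controlled at translation in a similar way. Ddit3 (ENSMUSG00000025408, chromosome 10, 127290774 to 127296288, + strand) encodes CHOP, a partner of ATF4 in prolonged stress. Trib3 (ENSMUSG00000032715, chromosome 2, 152337422 to 152344032, - strand) encodes a pseudokinase that is a target of ATF4 and CHOP, and Sesn2 (ENSMUSG00000028893, chromosome 4, 132492032 to 132510501, - strand) encodes sestrin 2, an inhibitor of mTORC1 that binds leucine. The enzymes begin with Asns (ENSMUSG00000029752, chromosome 6, 7675169 to 7693254, - strand), asparagine synthetase, and Chac1 (ENSMUSG00000027313, chromosome 2, 119351229 to 119354381, + strand), which breaks down glutathione. Serine is made from a glycolytic intermediate by Phgdh (ENSMUSG00000053398, chromosome 3, 98313170 to 98339990, - strand) and then Psat1 (ENSMUSG00000024640, chromosome 19, 15904678 to 15947337, - strand), and Mthfd2 (ENSMUSG00000005667, chromosome 6, 83305691 to 83325908, - strand) is a mitochondrial enzyme of folate metabolism, which takes up carbon from serine.

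The binding element of ATF4 with its C/EBP partners, the C/EBP-ATF composite element, was searched as TGATGNAA and its reverse complement TTNCATCA in RefSeq promoter windows (GRCm38.p6, 250 bases before to 50 bases after the annotated start). All 10 members had a window, 12 windows in all, and 3 members held the motif, namely Asns, Chac1 and Trib3. Among all windows of this length 1304 of 32851 held it (3.97%), and among all genes 1219 of 27025 (4.51%). The windows of Atf4, Atf5, Ddit3, Psat1 and Mthfd2, the members that fell at day 20 as described below, did not hold these letters. Those of Phgdh and Sesn2, which did not pass the test at day 20, did not hold them either. Asns, with the motif, was called lower in males at day 20. The lack of these letters says nothing about binding of the factor elsewhere. The windows with the motif and, for contrast, that of Atf4 are shown 5′ to 3′ on the strand of the gene; they were chosen after the values were seen. Capitals mark the motif, which in Chac1 and Trib3 lies on the other strand. The windows are at chr6:7693160-7693459 (- strand) for Asns, chr2:119350992-119351291 (+ strand) for Chac1, chr2:152344011-152344310 (- strand) for Trib3 and chr15:80254934-80255233 (+ strand) for Atf4.
Asns: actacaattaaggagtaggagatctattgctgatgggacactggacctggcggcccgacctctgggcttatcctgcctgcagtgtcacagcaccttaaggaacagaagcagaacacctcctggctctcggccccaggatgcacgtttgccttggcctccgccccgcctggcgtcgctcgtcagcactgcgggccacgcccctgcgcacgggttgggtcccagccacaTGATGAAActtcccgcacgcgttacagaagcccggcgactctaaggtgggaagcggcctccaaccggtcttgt
Chac1: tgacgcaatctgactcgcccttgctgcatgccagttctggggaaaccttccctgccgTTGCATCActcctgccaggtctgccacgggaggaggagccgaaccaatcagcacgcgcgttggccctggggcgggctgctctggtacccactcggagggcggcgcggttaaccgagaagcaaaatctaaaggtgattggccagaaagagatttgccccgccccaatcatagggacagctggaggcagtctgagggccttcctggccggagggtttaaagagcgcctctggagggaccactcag
Trib3: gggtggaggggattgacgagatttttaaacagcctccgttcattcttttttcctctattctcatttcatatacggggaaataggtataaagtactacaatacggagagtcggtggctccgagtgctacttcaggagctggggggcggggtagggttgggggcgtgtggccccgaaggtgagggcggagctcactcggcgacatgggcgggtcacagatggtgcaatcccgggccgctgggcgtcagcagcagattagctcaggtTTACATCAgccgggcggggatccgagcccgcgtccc
Atf4: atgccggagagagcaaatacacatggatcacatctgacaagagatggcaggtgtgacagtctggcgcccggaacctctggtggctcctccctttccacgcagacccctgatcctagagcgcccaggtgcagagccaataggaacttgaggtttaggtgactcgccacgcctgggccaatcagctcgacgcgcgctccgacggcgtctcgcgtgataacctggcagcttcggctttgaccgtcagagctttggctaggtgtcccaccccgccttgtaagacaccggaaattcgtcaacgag

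The 23 libraries used held between 9.19 and 44.7 M gene counts, where M is the mega of CPM. For dKO male day 10 replicate 3 the gene counts came to 45964, under the minimum of 1000000. It was left out of every level and test except the refit with all 24 libraries, so the day 10 dKO group had 5 libraries. Pank1 had 8.13 ± 0.67 CPM (counts per mega-count of the library) in dKO and 22.7 ± 1.6 CPM in WT at day 10 (SD, n = 5 and 6), and 7.49 ± 0.46 CPM in dKO and 22.7 ± 2.3 CPM in WT at day 20 (n = 6 each). Pank2 had 49.6 ± 3.0 CPM in dKO and 52.5 ± 3.4 CPM in WT at day 10, a difference that did not pass the test, and 42.0 ± 3.2 CPM in dKO and 56.5 ± 3.3 CPM in WT at day 20. Granule neuron and Purkinje cell markers of the cerebellum were abundant, with summed levels at day 20 of 1057 to 1213 CPM in dKO and 918 to 1312 CPM in WT for granule neurons and 743 to 869 CPM in dKO and 686 to 1006 CPM in WT for Purkinje cells. Forebrain neuron markers summed to 2.81 to 4.63 CPM in dKO and 3.34 to 4.25 CPM in WT.

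A pair of day 10 dKO libraries stood apart in regional markers. In dKO female day 10 replicate 2 forebrain neuron markers summed to 52.6 CPM, against 7.55 to 16.2 CPM in the 9 day 10 libraries other than this pair, and the granule neuron gene Gabra6 had 10.4 CPM against 51.8 to 269 CPM. In dKO male day 10 replicate 2 granule neuron markers summed to 248 CPM, against 833 to 1695 CPM, and the choroid plexus gene Ttr had 1.90 CPM against 232 to 579 CPM. Of the 5 dKO libraries at day 10 the male one also had the lowest levels of Atf4, Psat1, Phgdh and Mthfd2 and the highest of Asns, Chac1 and Sesn2. Tests that rest on day 10 dKO libraries are therefore given with and without this pair. WT libraries at day 10 varied as well. Purkinje cell markers summed to 1053 CPM in WT male day 10 replicate 1, against 404 to 720 CPM in the other WT libraries. Oligodendrocyte markers summed to 10845 CPM in WT female day 10 replicate 3, against 5380 to 7208 CPM. The part of regional make-up in the tests was not tested.

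Per length of transcript, Atf4 was the most abundant member and Trib3 the least in every combination of genotype and day. At day 20 Atf4 had a level of 27.4 ± 2.0 RPKM (CPM per kilobase of exons) in dKO and 36.2 ± 1.2 RPKM in WT. Asns, Phgdh and Psat1 came next, at 15.7 to 19.6 RPKM in dKO and 17.2 to 21.7 RPKM in WT, and neighbours among these 3 overlapped in their libraries' ranges in both genotypes. Ddit3 (4.91 ± 0.35 RPKM in dKO and 6.50 ± 0.45 RPKM in WT) and Sesn2 (4.28 ± 0.77 RPKM in dKO and 3.94 ± 0.33 RPKM in WT) followed. Atf5, Mthfd2 and Chac1 lay at 2.0 to 2.35 RPKM in dKO and 2.22 to 3.40 RPKM in WT, with overlapping neighbours. Trib3 was near the limit of these libraries, with 0.402 ± 0.136 RPKM in dKO and 0.335 ± 0.115 RPKM in WT, from 10 to 27 and 10 to 34 counts per library.

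At day 20 the transcription factors of the pathway and a pair of its enzymes were lower in dKO tissue, and no member was higher. Atf4, Atf5, Ddit3, Psat1 and Mthfd2 fell, to between 67.3 and 81.6% of WT, while Asns, Phgdh, Chac1, Trib3 and Sesn2 did not pass the test. That is 5 of 10 members called at an adjusted p under 0.05, all lower, where 38.8% of all genes tested were called and 19.5% were called lower. The median log2 difference of the 10 members was -0.22, beside -0.00037 over all genes tested. Because these are bulk samples, fewer cells of a type and less RNA per cell cannot be told apart.

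**Figure D1:**
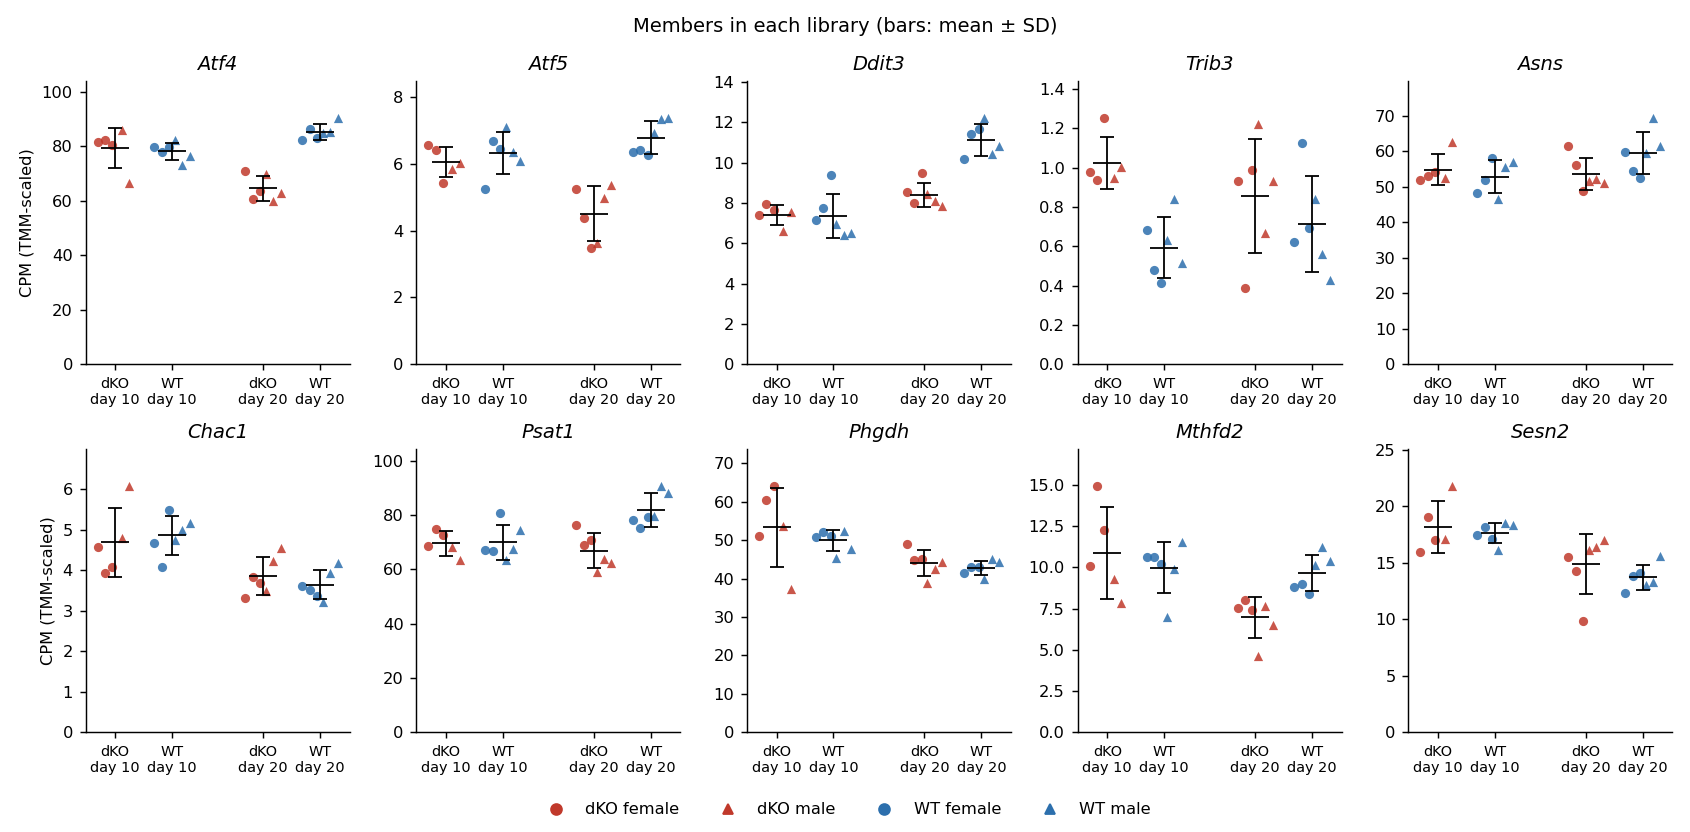
Levels of the 10 members in each library, in TMM-scaled CPM (vertical axes, linear, from 0), by genotype and day; circles are females, triangles males, bars mean ± SD. At day 20 the 6 dKO libraries of Atf4 (59.8 to 70.8 CPM) lie below the 6 WT libraries (82.2 to 90.4 CPM), while at day 10 the genotypes overlap.

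Atf4 had 59.8 CPM in the lowest, 63.3 at the median and 70.8 CPM in the highest of 6 dKO libraries at day 20, against 82.2, 85.04 and 90.4 CPM in WT. All 6 dKO libraries were below the lowest WT library. The fitted level was 75.7% of WT (95% confidence interval 69.8 to 82.0%), a log2 difference of -0.40 ± 0.06 (SE, adjusted p = 7.2e-06).

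Atf5 had the deepest fall of the members over both sexes. Its lowest, median and highest libraries had 3.49, 4.67 and 5.38 CPM in dKO against 6.28, 6.67 and 7.38 CPM in WT, again without overlap. The fitted level was 67.3% of WT (57.8 to 78.3%), a log2 difference of -0.57 ± 0.11 (adjusted p = 0.000174). On the other strand, Atf5 overlaps Nup62 and Il4i1.

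Ddit3, the gene of CHOP, had 7.85, 8.28 and 9.48 CPM in the lowest, median and highest dKO libraries against 10.2, 11.1 and 12.2 CPM in WT. No dKO library reached the lowest WT library. The log2 difference was -0.42 ± 0.08 (adjusted p = 0.000233), a level of 75.0% of WT (67.0 to 84.0%). Its locus overlaps Mars, the methionyl-tRNA synthetase gene, on the other strand, and Mars was lower as well, as given below.

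Among the enzymes, Mthfd2 had 4.62, 7.49 and 7.99 CPM in the lowest, median and highest dKO libraries at day 20, against 8.35, 9.56 and 11.2 CPM in WT. The groups did not overlap. The log2 difference was -0.47 ± 0.12 (adjusted p = 0.00339), or 72.4% of WT (61.0 to 85.9%). Psat1 had 58.9, 66.4 and 76.5 CPM in dKO against 75.2, 79.4 and 90.7 CPM in WT, with 5 of 6 dKO libraries below the lowest WT library. Its log2 difference was -0.29 ± 0.05 (adjusted p = 0.000207), or 81.6% of WT (75.4 to 88.3%). Across all genes tested 20.1% had no overlap between the genotypes at day 20, and 4 of the 10 members did.

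The other enzyme of serine synthesis, Phgdh, had 44.2 ± 3.4 CPM in dKO and 42.8 ± 1.9 CPM in WT. Its fitted level was 103% of WT with an interval of 93.1 to 114%, so that a fall as large as that of Psat1 lies outside the interval. Asns had 48.7, 51.9 and 61.4 CPM in the lowest, median and highest dKO libraries and 52.4, 59.6 and 69.3 CPM in WT, a log2 difference of -0.15 ± 0.07 (adjusted p = 0.0858). Asns passed the threshold when only the day 20 groups were fitted (adjusted p = 0.0435), and also without dKO female day 20 replicate 1 (adjusted p = 0.037).

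Chac1, at 3.85 ± 0.47 CPM in dKO and 3.64 ± 0.36 CPM in WT, differed by 0.08 on the log2 scale (95% interval -0.14 to 0.31). Sesn2 averaged 14.9 ± 2.7 CPM in dKO and 13.7 ± 1.1 CPM in WT, with a log2 difference of 0.12 (-0.07 to 0.31). In Sesn2 the spread came from dKO female day 20 replicate 3, at 9.81 CPM, while the other 5 dKO libraries had 14.2 to 17.1 CPM; without it Sesn2 was higher in dKO at an adjusted p of 0.0498. Trib3 had 0.855 ± 0.289 CPM in dKO and 0.713 ± 0.245 CPM in WT, and its interval of -0.32 to 0.71 allows changes in either direction.

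At day 10 no member was called, where 5.8% of all genes tested were called with edgeR. That background share rests on single libraries: 1257 genes were called with all 23 libraries, 16 without dKO male day 10 replicate 2, 4649 without dKO male day 10 replicate 1, and 13 without the pair that stood apart. Without WT male day 10 replicate 1, 66 genes were called. No member was called in any of these fits. At an unadjusted p under 0.05 there was 1 member, Trib3, beside 5467 of 21657 genes. Limma-voom called none, and DESeq2 called none of the other 9 and gave Trib3 no adjusted p (log2 difference 0.77). Trib3 had 0.978, 0.939, 1.253, 0.945 and 1.004 CPM in the 5 dKO libraries, from 11 to 27 counts each. In the 6 WT libraries the lowest, median and highest levels were 0.412, 0.573 and 0.839 CPM, from 5 to 28 counts. Every dKO library was above the highest WT library, which was the case in either direction for 1.99% of genes, but the log2 difference of 0.79 ± 0.27 had an adjusted p of 0.0777. Without the pair of libraries that stood apart it was 0.78, with an adjusted p of 0.524.

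For the members that fell by day 20, the differences at day 10 were small, with intervals on both sides of 0. Atf4 had 81.4, 82.5, 80.6, 85.9 and 66.6 CPM in the dKO libraries, and 73.2, 78.8 and 82.4 CPM in the lowest, median and highest WT library. Its log2 difference was 0.01 with a 95% interval of -0.11 to 0.13, which leaves out a fall of the size seen at day 20. For Ddit3 the dKO libraries had 7.39, 7.94, 7.66, 6.62 and 7.53 CPM, and WT libraries 6.401, 7.05 and 9.40 CPM at the lowest, median and highest. Ddit3 differed by -0.01 (-0.19 to 0.18) and Psat1 by -0.02 (-0.14 to 0.10) on the log2 scale. Atf5 differed by -0.08 (-0.31 to 0.15) and Mthfd2 by 0.08 (-0.18 to 0.34). Without the pair of libraries that stood apart the log2 differences were 0.08 for Atf4, -0.08 for Ddit3, -0.02 for Psat1, -0.12 for Atf5 and 0.07 for Mthfd2, none of them called.

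The genotype difference was larger at day 20 than at day 10 for the same 5 members that fell at day 20. In the test of the genotype by day interaction 5 of 10 members were called, all lower, where 28.7% of all genes tested were called and 14.9% lower. The change in the log2 difference was -0.41 ± 0.08 for Atf4 (adjusted p = 0.000791) and -0.49 ± 0.15 for Atf5 (adjusted p = 0.0207). It was -0.41 ± 0.12 for Ddit3 (adjusted p = 0.0145), -0.27 ± 0.08 for Psat1 (adjusted p = 0.0154) and -0.54 ± 0.17 for Mthfd2 (adjusted p = 0.022). Without the pair of day 10 libraries that stood apart, Atf4, Psat1 and Mthfd2 stayed called. That fit left 1 library in dKO male day 10 and called fewer of all genes as well. Atf5 then had -0.44 (adjusted p = 0.0843) and Ddit3 -0.33 (adjusted p = 0.102), and both also missed the threshold without dKO male day 10 replicate 2 alone (adjusted p = 0.0603 and 0.0743). Asns had -0.21 ± 0.10 (adjusted p = 0.106). Without dKO male day 10 replicate 1, only replicate 2 of the pair was left in that group. Mthfd2, at -0.48, then missed the threshold and Asns, at -0.27, passed it. Both rest on replicate 2, which had the highest Asns (62.5 CPM) and the lowest Mthfd2 (7.81 CPM) of the dKO libraries at day 10. Without replicate 2 instead, Asns had -0.13.

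**Figure D2:**
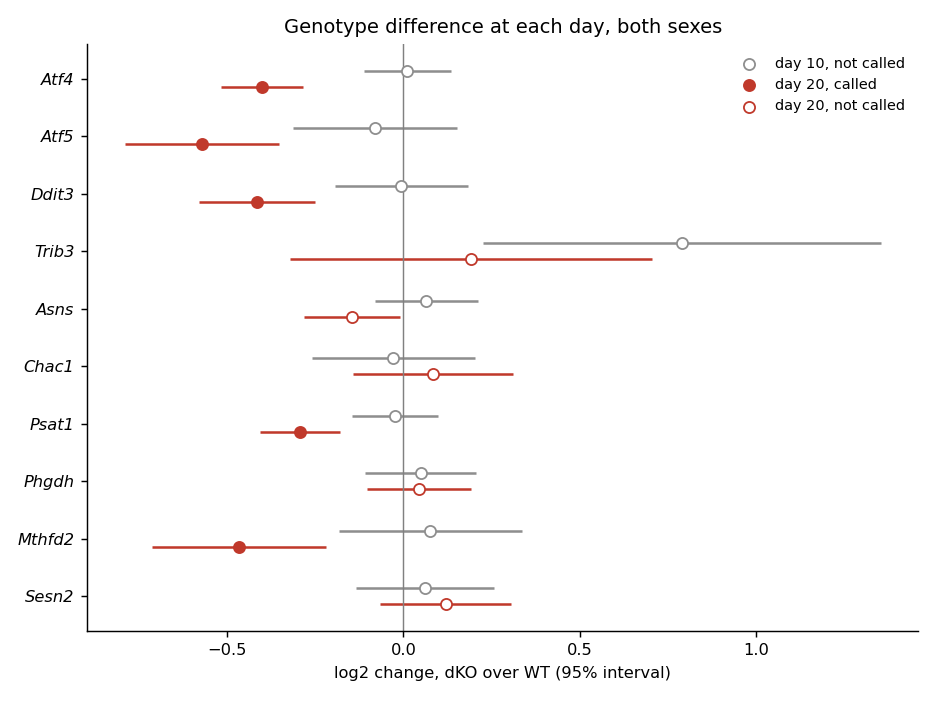
Log2 difference of dKO over WT for each member (horizontal axis) with its 95% interval, at day 10 (upper line of each pair) and day 20 (lower line), filled where called. Atf4, Atf5, Ddit3, Psat1 and Mthfd2 are called at day 20, from -0.57 to -0.29, and no member is called at day 10.

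By sex, Atf4, Atf5 and Ddit3 fell in dKO tissue of both sexes at day 20, and Asns, Psat1 and Mthfd2 fell in males. In females 3 of 10 members were called, Atf4, Atf5 and Ddit3, all lower, where 10.7% of genes were called and 5.37% lower. In males 6 of 10 were called, these 3 with Asns, Psat1 and Mthfd2, all lower, where 35.3% of genes were called and 17.5% lower. The log2 difference of Atf4 was -0.37 ± 0.08 in females and -0.44 ± 0.08 in males, that of Atf5 was -0.51 ± 0.15 in females and -0.63 ± 0.15 in males, and that of Ddit3 -0.36 ± 0.11 in females and -0.47 ± 0.11 in males. The female calls of Atf5 and Ddit3 were lost when dKO female day 20 replicate 2, WT female day 20 replicate 2 or WT female day 20 replicate 3 was left out, which left 1 call, Atf4. Either of the other dKO female libraries or WT female day 20 replicate 1 also took 1 of these calls with it. In males the call of Asns was lost without dKO male day 20 replicate 1 or 3 or WT male day 20 replicate 2.

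In males Psat1 had 58.9, 64.0 and 62.2 CPM in dKO against 79.5, 90.7 and 88.3 CPM in WT, and a log2 difference of -0.48 ± 0.08 (adjusted p = 5.4e-05). In females the dKO libraries had 76.5, 68.8 and 70.8 CPM against 78.0, 75.2 and 79.3 CPM in WT, a difference of -0.11 ± 0.08 (adjusted p = 0.421). The male groups were far apart, and the female groups overlapped.

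Mthfd2 had 4.62, 7.64 and 6.53 CPM in dKO males against 10.1, 11.2 and 10.4 CPM in WT males, and 7.54, 7.99 and 7.44 CPM in dKO females against 8.81, 9.01 and 8.35 CPM in WT females. Its log2 difference was -0.75 ± 0.17 in males (adjusted p = 0.00135) and -0.19 ± 0.17 in females (adjusted p = 0.531). For Asns it was -0.29 ± 0.09 in males (adjusted p = 0.0176) and 0.00061 in females, with a female interval of -0.19 to 0.19.

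The test of the genotype by sex interaction did not call these differences between the sexes. With edgeR 0 members and 0 of 21657 genes were called at day 20 (0%), with 3 members and 3282 genes at an unadjusted p under 0.05; limma-voom called 0 genes and DESeq2 347, none of them a member (Trib3 had no adjusted p). The male minus female difference was -0.38 ± 0.11 for Psat1 (adjusted p = 0.116), -0.56 ± 0.24 for Mthfd2 (adjusted p = 0.267) and -0.29 ± 0.13 for Asns (adjusted p = 0.296). When only the day 20 groups were fitted, 1091 genes were called, Psat1 among them. At day 10 no member was called in females, where 0.591% of genes were called, in males (0.0139%) or for the interaction (0%). Trib3 in females was the 1 member under an unadjusted p of 0.05 in these 3 tests. Of 21657 genes, 3984 were under it in females, 4230 in males and 2603 for the interaction. Limma-voom called no member either. DESeq2 called none, but gave Trib3 no adjusted p in females or in males. Without the pair of libraries that stood apart no member was called in females (14 genes in all), in males (3 genes) or for the interaction (0 genes). Without dKO male day 10 replicate 1, only replicate 2, of the pair that stood apart, was left in that group, with 37.3 CPM of Phgdh. Phgdh was then called in males and for the interaction, which rests on that 1 library.

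**Figure D3:**
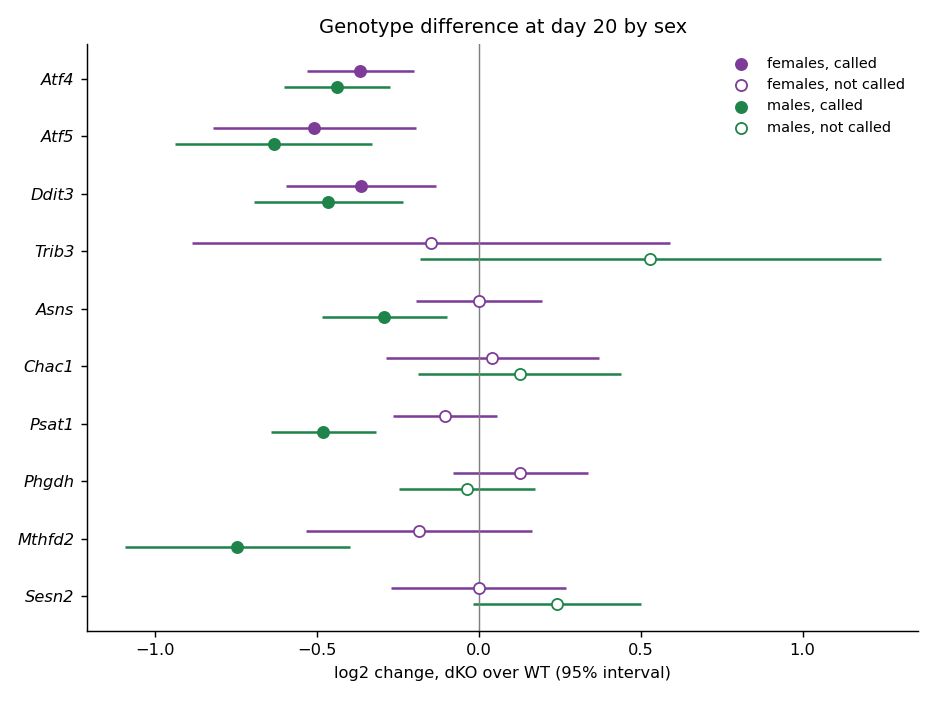
Log2 difference of dKO over WT at day 20 for each member (horizontal axis) with its 95% interval, in females (upper line of each pair) and males (lower line), filled where called. The intervals of Atf4, Atf5 and Ddit3 overlap between the sexes, while Psat1 lies at -0.11 in females and -0.48 in males, a difference that did not pass the interaction test.

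Between the days, 6 members were lower at day 20 than at day 10 in dKO tissue, and in WT tissue 3 were higher and 3 lower. In the same comparisons 61.6% of genes were called in dKO, 31.2% lower, and 51.4% in WT, 26.1% higher and 25.3% lower. A share of 6 in 10 called in either direction is near the background in both. In dKO all 6 calls were lower, beside the 31.2% of all genes called lower. The comparisons of genotypes and of days share libraries, so the values stand side by side. Ddit3 had a log2 change of 0.19 ± 0.09 in dKO (adjusted p = 0.0796) and 0.60 ± 0.08 in WT, where it rose (adjusted p = 1.2e-06). Psat1 changed by -0.05 ± 0.06 in dKO (adjusted p = 0.521) and by 0.22 ± 0.05 in WT (adjusted p = 0.00153). Atf4 fell in dKO, by 0.29 ± 0.06 (adjusted p = 0.000238), and had 0.13 ± 0.06 in WT (adjusted p = 0.0647). In WT it was called higher with only the groups compared, and without WT male day 10 replicate 1 or dKO male day 10 replicate 1, whose spread enters the same fit.

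Mthfd2 fell by 0.56 ± 0.13 in dKO (adjusted p = 0.000728) and had -0.02 ± 0.11 in WT (adjusted p = 0.909). Atf5 fell by 0.40 ± 0.12 in dKO (adjusted p = 0.00545) and had 0.09 ± 0.10 in WT (adjusted p = 0.48). Chac1, Phgdh and Sesn2 fell with day in both genotypes, with log2 changes of -0.32, -0.23 and -0.30 in dKO and -0.43, -0.22 and -0.36 in WT. Without the pair of day 10 libraries that stood apart, the calls of Chac1 and Sesn2 in dKO were lost. That fit left 1 library in dKO male day 10 and called fewer of all genes as well. In dKO, Ddit3 was called higher with the unstranded counts. The call of Chac1 was also lost with no filter and without dKO female day 10 replicate 1, dKO female day 20 replicate 1 or dKO male day 20 replicate 1, and that of Phgdh without dKO male day 10 replicate 1. Asns rose in WT by 0.17 ± 0.07 (adjusted p = 0.0361), a call that was lost with DESeq2, with only the groups compared, with the unstranded counts, and without WT female day 10 replicate 1 or 2, WT female day 20 replicate 1, WT male day 10 replicate 1 or WT male day 20 replicate 2, and had -0.04 ± 0.07 in dKO.

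**Figure D4:**
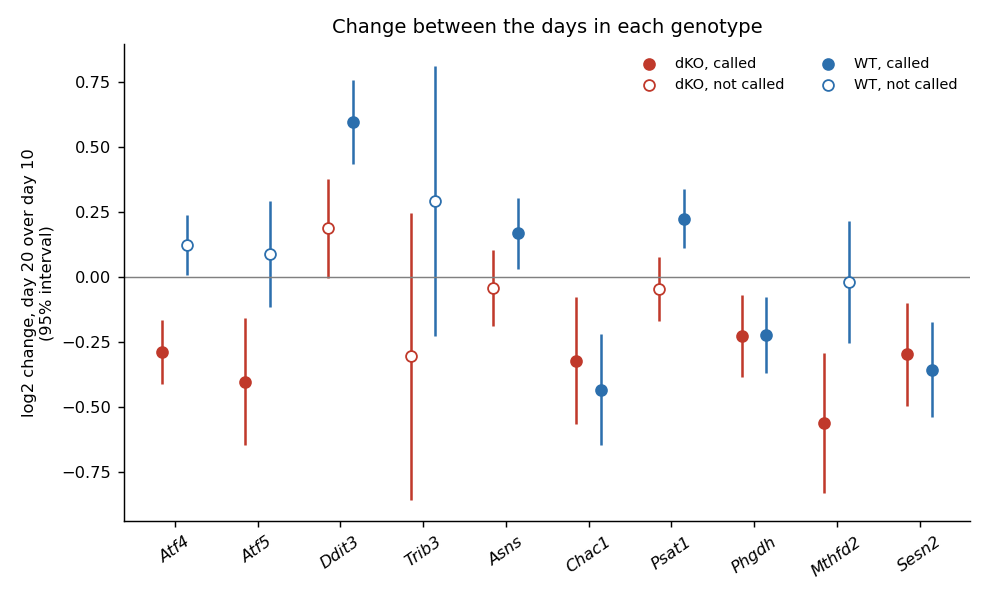
Log2 change from day 10 to day 20 (vertical axis) with its 95% interval for each member, in dKO (left of each pair) and WT (right), filled where called. Ddit3 and Psat1 are called higher in WT and not called in dKO, while Atf4, Atf5 and Mthfd2 are called lower in dKO and not called in WT.

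The rest of the pathway, in 5 lists of related genes, held calls in both directions at day 20. Of 85 tested genes 14 were higher and 22 lower in dKO, or 42.4%, where 38.8% of all genes tested were called, 19.4% higher and 19.5% lower. Their median log2 difference was -0.03. The share called lay near that of all genes and is no result about the lists; in the single lists, of 11 to 24 genes, it was 35% to 50%. Of 14 genes of eIF2, its kinases, its exchange factor eIF2B and its phosphatase, 4 were higher and 3 lower. Eif2ak4, the kinase GCN2 that senses uncharged tRNA, had 68.0 ± 11.9 CPM in dKO and 46.9 ± 1.5 CPM in WT (log2 0.52 ± 0.05, adjusted p = 1.0e-07). Ppp1r15a, the phosphatase subunit GADD34 that ends the response and is itself a target of it, had 14.6 ± 1.9 CPM in dKO and 10.5 ± 0.7 CPM in WT (0.47 ± 0.08, adjusted p = 8.9e-05). Eif2s1, the subunit that is phosphorylated, fell to 35.4 ± 2.0 CPM in dKO against 43.1 ± 2.4 CPM in WT (-0.29), and Ppp1r15b, the constitutive phosphatase subunit, differed by -0.16 ± 0.04.

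Cytosolic tRNA synthetases, several of which are targets of ATF4, counted 1 higher and 6 lower of 20. Those with the smallest p were Mars (42.1 ± 2.2 CPM in dKO and 51.9 ± 2.6 CPM in WT, -0.31 ± 0.05), Dars (-0.27), Iars (-0.23) and Farsb (-0.22), which charge tRNAs for aspartate, isoleucine and, as a subunit, phenylalanine. Of 11 amino acid transporters 1 was higher and 4 lower. Slc7a11, the cystine and glutamate exchanger and a target of ATF4, fell to 36.9 ± 10.4 CPM in dKO against 78.3 ± 6.3 CPM in WT (log2 -1.12 ± 0.09, adjusted p = 1.0e-08), a deeper fall than that of any of the 10 members. Slc7a10, which carries serine and glycine in astrocytes, fell by 0.68, and Slc6a9, a glycine transporter, fell by 0.36. Slc7a5, the large neutral amino acid transporter, was higher at 74.3 ± 3.5 CPM in dKO and 59.7 ± 4.1 CPM in WT (0.32 ± 0.06).

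Enzymes of serine, glycine, proline and folate metabolism other than the members counted 3 higher and 4 lower of 17. Mthfd1l, which follows Mthfd2 in the mitochondrial folate pathway, rose to 45.05 ± 12.6 CPM in dKO against 23.3 ± 2.2 CPM in WT (0.91 ± 0.08, adjusted p = 2.0e-08), opposite in direction to Mthfd2. Aldh1l1, a folate enzyme of astrocytes, rose by 0.40, while Srr, the serine racemase that makes D-serine, fell by 0.35 and Amt of the glycine cleavage system fell by 0.28. Of 24 other targets or partners of ATF4 and CHOP that were tested, 6 were higher and 5 lower. Ddit4, an inhibitor of mTORC1 that glucocorticoids also induce, had 92.2 ± 13.9 CPM in dKO and 43.3 ± 5.8 CPM in WT (1.09 ± 0.10, adjusted p = 6.4e-08). Bbc3, which encodes the apoptosis protein PUMA, rose by 0.73 and Cbs, which makes cystathionine, by 0.39, with Ppp1r15a above as the fourth by p.

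ER chaperones, targets mainly of the XBP1 and ATF6 branches of the unfolded protein response, counted 0 higher and 9 lower of 10, with a median log2 difference of -1.17. The list of 10 also holds Xbp1, the gene of the factor itself. Hspa5, the chaperone BiP, fell to 172 ± 18 CPM in dKO against 402 ± 79 CPM in WT (-1.23 ± 0.10), Hsp90b1 to 192 ± 17 CPM in dKO against 373 ± 59 CPM in WT (-0.96). Manf, a secreted and ER-resident neurotrophic factor, fell by 1.31 and Pdia4, a disulfide isomerase, by 1.39. Glucocorticoid targets counted 9 higher and 0 lower of 9, with the smallest p for the glucocorticoid receptor co-chaperone Fkbp5 (95.5 ± 18.2 CPM in dKO and 20.2 ± 1.6 CPM in WT, 2.24 ± 0.10), with the hypoxia factor Hif3a at 2.36 and the kinase genes Map3k6 at 2.72 and Sgk1 at 1.44. The part of either list in the members' levels was not tested.

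At day 10, 4 of the 85 genes of the 5 pathway lists were called (4.71%), all higher, where 5.8% of all genes were called and 3.89% higher, and 0 of the ER chaperones and glucocorticoid targets were. The 4 were Slc1a4, a transporter of serine and alanine (106 ± 13 CPM in dKO and 85.1 ± 11.9 CPM in WT, 0.31 ± 0.08, adjusted p = 0.0357), Trib2, a pseudokinase gene related to Trib3 (0.37), Xpot, which exports tRNA from the nucleus (0.17), and Eif2s2, a subunit of eIF2 (0.17). Their adjusted p-values were 0.0351 to 0.0487, and without the pair of libraries that stood apart 0 of the related genes were called, as 13 of all genes were against 1257 with it.

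**Figure D5:**
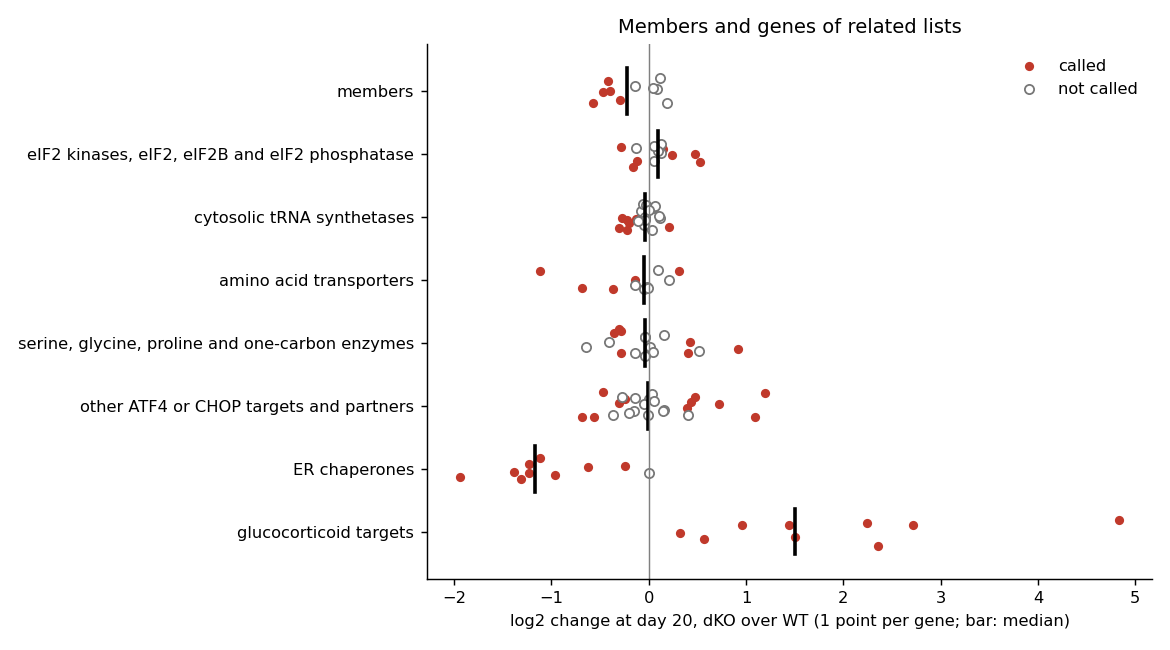
Log2 difference of dKO over WT at day 20 (horizontal axis) for the members and for each list of related genes, 1 point per gene, red where called; bars are medians. The members lie between -0.57 and 0.19, the lists of the wider pathway spread to both sides of 0, ER chaperones have a median of -1.17 and glucocorticoid targets a median of 1.503.

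Markers of several cell types were called at day 20, where 38.8% of all genes tested were called, 19.4% higher and 19.5% lower. A count of markers near these shares is no result about the cell type. Microglial markers were lower in 5 of 5, with summed levels of 40.8 to 76.7 CPM in dKO and 91.4 to 106 CPM in WT. Endothelial markers were lower in 3 of 4 (92.6 to 121 CPM in dKO and 141 to 150 CPM in WT) and erythroid markers in 4 of 4 (72.0 to 125 CPM in dKO and 302 to 637 CPM in WT). Oligodendrocyte markers were lower in 3 of 6 (10245 to 12818 CPM in dKO and 13432 to 17287 CPM in WT), and pericyte markers lower in 2 of 3 and higher in 1 (117 to 134 CPM in dKO and 178 to 216 CPM in WT). Markers of astrocytes, in which much of the brain's serine is made, were higher in 3 and lower in 2 of 9, with sums of 4680 to 5316 CPM in dKO and 5083 to 5393 CPM in WT.

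Neuronal markers were lower in 2 of 5 (2147 to 2390 CPM in dKO and 2467 to 2571 CPM in WT), choroid plexus markers in 2 of 3 (198 to 484 CPM in dKO and 472 to 615 CPM in WT) and markers of dividing progenitors in 2 of 5 (1.32 to 2.6 CPM in dKO and 4.94 to 13.4 CPM in WT). Markers of oligodendrocyte precursors were higher in 1 of 3 (205 to 270 CPM in dKO and 211 to 256 CPM in WT), and 0 of 4 granule neuron, 0 of 3 Purkinje cell and 0 of 3 forebrain neuron markers were called. Counts in such short lists stand beside the 38.8% of all genes called at day 20. The part of these cell types in the members' levels was not tested.

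Genes with a pattern most like that of Atf5, the member with the greatest called fall at day 20 over both sexes, were sought over the 8 combinations of genotype, sex and day, by the root mean square difference of centred mean log2 CPM. The nearest were Fkbp4, another co-chaperone of steroid receptors (0.06), Ptp4a1, Zscan20, Slc35g1 and Adcy4 (each 0.07), where the spread of Atf5 itself by the same measure was 0.23. The pair of day 10 libraries that stood apart entered these means, and the search was not repeated without it. As no member rose at day 20, no such search was made for a rise.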

How the data were processed

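RNA from tissue labelled Back left brain was made into TruSeq Stranded mRNA libraries, per the labels. The authors deposited raw counts per gene for each of 24 libraries, without normalization. The submitters' processing notes name STAR 2.5.2b, HTSeq and the build GRCm38.p5, while the annotation and the tool behind the counts are not stated there. The column of reverse-strand counts was used, since forward-strand counts were 5.22 to 7.46% of it. Depth was 9.19 to 44.7 M gene counts, so that 1 count is 0.0224 to 0.109 CPM. Of 50686 gene identifiers 50376 matched GENCODE M21, which gave symbols and positions, and 4 entries that name no gene were left out: reads in no feature made up 41.7 to 47.5%, unmapped 7.65 to 11.0%, multimapping 4.77 to 5.94% and ambiguous 0.589 to 1.05%.

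Tests used edgeR 4.0.16 under R 4.3.3. Genes passing filterByExpr were scaled by TMM and fitted by glmQLFit (robust) with 8 group means over 23 libraries. Contrasts were tested by glmQLFTest, two-sided, with Benjamini-Hochberg adjustment over 21657 genes. Differences between genotypes weight both sexes equally. Intervals are 95% intervals from the fit. The fit was also run on simulated counts with known changes in a small set of genes in dKO at day 20. Those counts held no other differences between groups and no libraries that stood apart. They therefore do not vouch for the fit on these data. Alternatives used DESeq2 1.42.0, limma-voom (limma 3.58.1), other filters, scaling, columns and sets of libraries. The members, lists and tests were chosen with earlier results of these data known. All members are named; of each related list, up to 4 called genes with the smallest p at day 20 and 3 at day 10; of Atf5, the 5 genes nearest in pattern. Pank1 and Pank2 are given as the check of the targeted genes, together with Pank3, which fell in dKO at day 20 (log2 -0.40) and had 0.05 at day 10. Reads shared by genes on the same strand (Mthfd2 with Gm43890, Sesn2 with Gm12981, and a second Ddit3 entry) may have been left out as ambiguous.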

Additional observations from a re-analysis of the deposited data

Results flagged for a closer look

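In 4 of 40 groups of libraries, 1 library lay far from the others by Dixon's test, which flags about 1 group in 20 by chance. At day 10 Atf4 had 66.6 CPM in dKO male replicate 2, while the other dKO libraries had 80.6 to 85.9 CPM. The same library had 62.5 CPM of Asns, against 51.9 to 54.1 CPM in the others, and is 1 of the pair that stood apart in regional markers. Trib3 had 1.253 CPM in dKO female day 10 replicate 3, above 0.939 to 1.004 CPM in the other dKO libraries. Mthfd2 had 7.01 CPM in WT male day 10 replicate 1, below the 9.89 to 11.5 CPM of the other WT libraries.

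The genotype difference changed between the days, by the interaction test, for Atf4 (-0.41), Atf5 (-0.49), Ddit3 (-0.41), Psat1 (-0.27) and Mthfd2 (-0.54 on the log2 scale). Without dKO male day 10 replicate 2 the values were -0.46 for Atf5 and -0.34 for Ddit3. Without replicate 1 of that group Mthfd2 had -0.48. Each then missed the threshold, in a fit that left 1 library in that group.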

How the results depend on the processing

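Each of 23 libraries was left out in turn and 10 other settings were tried, of which leaving out both day 10 dKO libraries that stood apart was chosen after seeing the data. As dKO male day 10 had 2 used libraries, leaving out either of them, or both libraries that stood apart, left 1 library in that group. No paired analysis was possible because the labels carry no replicate numbers; those used here follow accession order and pair nothing. Fitting only the groups compared gives no separate value for the genotype by day interaction, which uses all groups. Of 977 refitted values of single members, 930 kept direction and side of the threshold, among them Trib3 at day 10 with DESeq2, which had no adjusted p; 38 changed sign, all of values not called either way, 5 lost the call and 4 gained it. The day 20 calls of Atf4, Atf5, Ddit3, Psat1 and Mthfd2 held in every refit; the count was 5 to 6 on leaving out a library. Other counts of members on leaving out a library were 5 to 7 for WT between days, 4 to 6 for dKO between days, 3 to 5 for genotype by day, 1 to 3 in females and 5 to 6 in males at day 20, 0 to 1 in males and for genotype by sex at day 10 (Phgdh, without dKO male day 10 replicate 1), and 0 in the other comparisons. All genes called also moved across these refits in every comparison, so the ranges are no result about the members. In the main fit 51.4% of genes were called for WT between days and 61.6% for dKO between days. That share was 28.7% for genotype by day, and 10.7% in females and 35.3% in males at day 20. Members called moved to 1 in females at day 20 with no filter, where 1827 of 39024 genes were called. They moved to 1 for genotype by sex at day 20 with only the groups compared, where 1091 of 20369 genes were called. For genotype by day, Atf5 and Ddit3 lost the call without both libraries that stood apart. Related genes called at day 10 in all 7 lists (4) moved to 2 with all 24 libraries and with RLE size factors, to 0 without both such libraries, with no filter and with only the groups compared, and to 8 with DESeq2; on leaving out a library they ranged from 0 to 15 at day 10 and 50 to 60 at day 20. The cause was not tested. All genes called at day 10 (1257) moved to 2105 with DESeq2, 607 with no filter, 6 with only the groups compared and 13 without both such libraries, and on leaving out a library ranged from 16 (without dKO male day 10 replicate 2) to 4649 (without dKO male day 10 replicate 1); the range at day 10 was 4 (without WT female day 10 replicate 3) to 1459 (without dKO female day 10 replicate 1) in females and 2 (without WT male day 10 replicate 1) to 4484 (without dKO male day 10 replicate 1) in males. They moved in females at day 20 (2316) to 4011 with only the groups compared; in females at day 10 (128) to 789 and in males (3) to 572 with DESeq2. Signs turned at day 10 for Asns (-0.013) and Sesn2 (-0.076) without both such libraries, Atf4 (-0.0099) with no filter, and Ddit3 with the earlier dispersion estimate (0.0011) and a mean of at least 1 CPM (0.0014). For Phgdh the genotype by day value became 0.00101 with all 24 libraries, 0.0067 with DESeq2, 0.0104 with limma-voom, 0.0037 with no filter and 0.00675 with RLE. On leaving out a library, day 10 differences that turned ranged from -0.0146 to 0.12 for Asns, -0.0909 to 0.0816 for Atf4, -0.14 to 0.0481 for Chac1, -0.0722 to 0.0646 for Ddit3, -0.0369 to 0.14 for Mthfd2, -0.097 to 0.15 for Phgdh, -0.0523 to 0.0269 for Psat1 and -0.0463 to 0.14 for Sesn2; genotype by day values did so from -0.11 to 0.14 for Phgdh and -0.0228 to 0.17 for Sesn2. Depth limits Trib3 most, at 5 to 34 counts per library.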

Other observations

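The library left out for depth, dKO male day 10 replicate 3, held 13 counts over all 10 members, of which Psat1 had 5 and Atf4 had 4. No level is given for it.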
